A study of Drosophila melanogaster with 51 samples.

Results

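Gene expression was compared between Drosophila melanogaster larvae of the genotype csn53 and wild-type larvae, both at 96 h after egg deposition (AED). The comparison consists of the arrays titled csn53 at that age, 5 of 51 arrays in the series, and of every feature of the deposited table. By its name csn53 is an allele of CSN5, and no label gives the kind of lesion it carries. On each array, total RNA from whole csn53 larvae was labelled with one dye and total RNA from wild-type larvae of the same age, given in the labels as w118, with the other. The mutant carried Cy3 on replicates 1 and 2 and Cy5 on replicates 3, 4 and 5. The labels number the arrays as biological replicates 1 to 5 and do not say how many larvae went into a sample. A further 3 groups are used for comparison, namely the genotype csn51 at 96 h (5 arrays), whose name marks it as another CSN5 allele, the null genotype csn5null at 96 h (4 arrays), and csn53 at 72 h (4 arrays). Each of these was also hybridised against wild type of its own age. The genotypes csn53 at 60 h (5 arrays) and csn4null at 96 h (4 arrays) are cited only as values.

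The COP9 signalosome takes Nedd8, a small protein related to ubiquitin, off the cullins, which are the scaffold proteins of a large class of ubiquitin ligases. CSN5 is the subunit that holds the catalytic site, and CSN4 is a further subunit of the complex. In the last larval stage of Drosophila, pulses of the steroid hormone ecdysone drive the moult and the turn to metamorphosis, and the epidermis then lays down new cuticle while the fat body makes large amounts of storage protein.

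All values are log2 ratios of csn53 over wild type, so that 1 stands for a 2-fold higher and -1 for a 2-fold lower level in the mutant. No label or header names the base of the logarithm; with a natural logarithm every ratio would be larger by the same factor, and no test would change. The direction was not stated either. It was taken from the 2 null genotypes, in which the deposited values of CSN4 and CSN5 lay above 0 on 11 of 11 and 13 of 13 arrays, with means of 2.34 and 3.23, and every sign was turned. This makes mutant over wild type the likely direction, and if it is wrong every rise below is a fall. The p-values rest on a single spread per gene, taken within groups over all 51 arrays and not from the 5 csn53 arrays alone. That spread may be technical, and the precision of the p-values is limited by how many arrays there are. In whole larvae a change in the number of cells of a type and a change in RNA per cell cannot be told apart, and whether csn53 and wild-type larvae of one age had reached one stage of development was not tested.

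Replicates 3 and 4 stood apart from the other 3 arrays. Across features, replicates 1, 2 and 5 correlated with each other at 0.906 to 0.942, whereas replicates 3 and 4 correlated with replicates 1 and 2 at 0.776 to 0.788, with each other at 0.781 and with replicate 5 at 0.845. Counts are therefore also given with replicates 1, 2 and 5 as the only csn53 96 h arrays, a setting added after the data were seen. The 5 arrays held values for 6152 to 6185 of 6187 features. Among the comparison groups, csn5null 96 h replicate 3 correlated with the other arrays of its group at 0.0215 to 0.0972 while those correlated at 0.711 to 0.789, and its CSN5 value was -0.01. Arrays of csn51 at 96 h had values for fewer features (5505 to 5777) and a wider spread of ratios (SD 0.858 to 0.950, against 0.622 to 0.776 in csn53). In that group replicate 1 correlated with the other arrays at 0.469 to 0.659, while those correlated with each other at 0.720 to 0.846. The csn53 arrays at 72 h correlated with each other at 0.515 to 0.680.

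At 96 h the csn53 larvae differed from wild type over a large part of the measured genes. Of 6186 features tested with limma, 2506 (40.5%) passed a Benjamini-Hochberg adjusted p of 0.05, of which 1298 (21.0%) were higher and 1208 (19.5%) lower in csn53, the shares against which the count of each gene list below stands. The median over all features was -0.01, and the median size of a called ratio was 0.50 with either sign. Large changes were more often rises. Beyond a log2 ratio of 2, which is 4-fold, there were 87 rises and 34 falls, and beyond 3, which is 8-fold, 41 rises and 9 falls. Of the called features, 2239 (89.4%) had one sign on every array with a value. With replicates 1, 2 and 5 alone 2155 features were called, 1090 higher and 1065 lower, and with array weights 3774 were called. The called features included 1941 named genes, and the other 565 carried no single gene symbol.

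The 2 targets of the series did not pass the test in csn53. CSN5 was at -0.28, -0.27, -0.15, -0.08 and -0.27 on replicates 1 to 5, below 0 on every array, with a fitted ratio of -0.25 ± 0.30 (SE, n = 5; limma adjusted p = 0.552). The standard error of CSN5 is wide because one spread per gene is taken from all arrays, and CSN5 varies strongly in csn5null, from -3.84 to -0.01 at 96 h. In fits of the 5 csn53 arrays alone CSN5 was called lower, at -0.21 without a dye term (adjusted p = 0.0208) and -0.22 with one (adjusted p = 0.0174), while over all settings tried its adjusted p ran up to 0.732. The mean of CSN5 in csn5null at this age was -2.03. CSN4 was at 0.11, 0.19, -0.06, -0.24 and -0.14, on both sides of 0, with a fitted ratio of -0.02 ± 0.13 (adjusted p = 0.916). Of the other COP9 subunit genes measured, CSN1b was at -0.13 ± 0.07 (adjusted p = 0.170) and CSN7 at 0.03 ± 0.10 (adjusted p = 0.854), both named after their values were seen. The gene of the subunit CSN2, alien, was at -0.20 ± 0.08 (adjusted p = 0.0439) but at 0.24 on replicate 4, and its call was lost without replicate 1 (-0.13, adjusted p = 0.292), 2 (-0.14, adjusted p = 0.242) or 5 (-0.19, adjusted p = 0.121).

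Among 14 genes of cullins, the Nedd8 pathway and partners of cullin ligases, 5 rose and 3 fell, with a median of 0.01. These shares were 35.7% and 21.4%, against 21.0% and 19.5% of all features. With replicates 1, 2 and 5 the counts were 4 and 3. Keap1, a substrate adaptor of Cul3 ligases that holds down the oxidative stress response, read 1.26, 1.22, 0.78, 0.75 and 0.74 and rose by 0.97 ± 0.13 (adjusted p = 1.27e-07). All 5 arrays lay above 0, and the 2 highest were those with the mutant in Cy3. Cul6, a cullin gene, rose by 0.65 ± 0.12 and was between 0.51 and 0.96 on the arrays. The rises of the cullin genes Cul1 (0.23 ± 0.08) and Cul4 (0.19 ± 0.07), named after their values were seen, were less secure. The call of Cul1 was lost without replicate 1, 2, 4 or 5. That of Cul4 was lost without replicate 3 or 4, and with replicates 1, 2 and 5 alone. SkpA, which links F-box proteins to Cul1, fell to -0.46 ± 0.08, with arrays between -0.67 and -0.26, and Fsn, an F-box protein gene, to -0.47 ± 0.07, with arrays between -0.59 and -0.31. Cand1, which exchanges the substrate receptors of cullin ligases and was named after its values were seen, fell to -0.31 ± 0.08 (adjusted p = 0.00112).

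Of 17 genes of the 26S proteasome, the protease that degrades ubiquitin-tagged proteins, none rose and 4 fell, with a list median of -0.15. The share that fell (23.5%) was near that of all features (19.5%). These 4 were Rpn7 (-0.25 ± 0.05), Rpt5 (-0.28 ± 0.07) and Rpn2 (-0.30 ± 0.08), which belong to the regulatory particle, and Prosalpha7 (-0.24 ± 0.07), a subunit of the core particle. All 5 arrays were below 0 for each of these 4 genes, the values nearest to 0 being those of replicate 4, between -0.13 and -0.04. The proteasome count depended on the setting, with 7 lower members in a fit of the csn53 arrays alone, 7 without the doubted csn5null arrays and 12 with array weights. Among 21 genes of ubiquitin conjugation and removal, 4 rose and 7 fell, and 2 and 5 did so without replicate 1. The fall was clearest in ben, a ubiquitin-conjugating enzyme, at -0.60, -0.69, -0.75, -0.50 and -0.88 (fitted -0.68 ± 0.06, adjusted p = 1.90e-12). The deubiquitinase gene Usp30 (-0.40 ± 0.06) and Uba2 (-0.39 ± 0.07), a subunit of the SUMO-activating enzyme, also fell and had no array above 0.

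The ecdysone-inducible genes ImpL1 and ImpE2 were among the largest rises, and a fat body gene of the late larva was the largest fall. Fbp2, an alcohol dehydrogenase-like protein made in the larval fat body, read -7.68, -8.69, -8.67, -8.01 and -9.09, and was lower by -8.50 ± 0.60 (adjusted p = 2.58e-14). The fall was of this order on all 5 arrays. ImpL1 and ImpE2, both isolated as ecdysone-inducible genes of imaginal discs, rose. ImpL1 was at 6.27, 5.75, 3.86, 5.40 and 6.29 (fitted 5.53 ± 0.65, adjusted p = 1.01e-08) and ImpE2 at 5.10, 5.11, 2.54, 4.74 and 4.86 (fitted 4.56 ± 0.60, adjusted p = 1.04e-07). In both genes replicate 3 was the lowest array and still well above 0.

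Of the 16 ecdysone response genes measured, 4 rose (25.0%, against 21.0% of all features) and 5 fell (31.2%, against 19.5%), with a median of -0.02, and the count was also 4 and 5 with replicates 1, 2 and 5. The other 2 that rose were nuclear receptor genes, named here after their values were seen. Hr3, which acts after the hormone peak, was at 1.62, 1.69, 1.04, 1.64 and 1.71 and rose by 1.55 ± 0.24 (adjusted p = 8.79e-07), and ftz-f1, which acts when the hormone has declined, was at 1.82, 1.53, 0.86, 0.99 and 1.69 and rose by 1.42 ± 0.29 (adjusted p = 1.20e-04). The falls included both partners of the ecdysone receptor and an early response gene. EcR, the hormone-binding partner, was at -1.01, -1.06, -1.09, -0.87 and -1.005 (fitted -0.99 ± 0.19, adjusted p = 3.32e-05), and usp, its dimer partner, at -0.26, -0.31, -0.45, -0.25 and -0.35 (fitted -0.31 ± 0.09, adjusted p = 0.00537). The early gene br, a transcription factor needed for the larval to pupal switch, was at -0.85, -1.08, -1.07, -0.86 and -1.16 and fell to -1.01 ± 0.08 (adjusted p = 8.31e-14). The nuclear receptor gene Hr78 fell to -0.39 ± 0.07 (adjusted p = 4.64e-05). EcR, usp and Hr78 were likewise named after their values were seen.

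Among 4 genes of ecdysteroid or juvenile hormone synthesis and turnover, mld rose and 3 fell. The transcription factor gene mld, needed for ecdysone production, was at 0.37 ± 0.09 (adjusted p = 0.00129). Start1, a START domain protein placed in sterol handling, was at -0.62, -0.59, -0.62, -0.07 and -0.56, with replicate 4 near 0 and the others close together, and fell to -0.50 ± 0.08 (adjusted p = 8.00e-07). The juvenile hormone-inducible gene JhI-21, an amino acid transporter, fell to -0.60 ± 0.10, and its arrays split into -1.18 and -1.06 on replicates 1 and 2, with the mutant in Cy3, and -0.29 to -0.15 on the others.

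**Figure D1:**
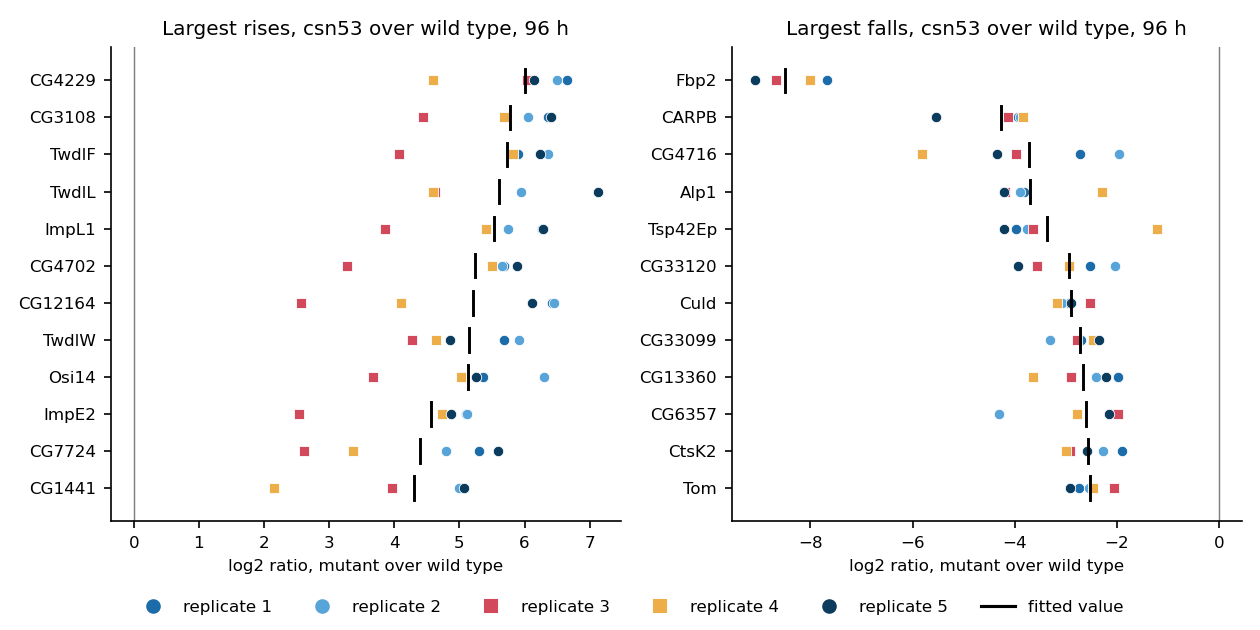
Log2 ratio of csn53 over wild type at 96 h (horizontal axis) for the 12 genes that rose most and the 12 that fell most, among those that had one sign on every array. Points are single arrays, with circles for replicates 1, 2 and 5 and squares for replicates 3 and 4, and the vertical bar is the fitted ratio. Fbp2 lies between -9.09 and -7.68 on all 5 arrays, and replicate 3 is the lowest array for TwdlF, ImpL1, CG4702 and ImpE2.

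The 12 largest rises and 12 largest falls are shown in the plot of single arrays. Besides ImpL1 and ImpE2, the rises held 3 Tweedle cuticle protein genes (TwdlF, TwdlL and TwdlW), Osi14 of the Osiris family of insect transmembrane proteins, and genes known only by CG numbers. The largest was CG4229, at 6.65, 6.49, 6.04, 4.59 and 6.14 (fitted 6.01 ± 0.44, adjusted p = 7.99e-14). CG3108 followed at 6.35, 6.05, 4.44, 5.69 and 6.41 (fitted 5.78 ± 0.77), and Osi14 was at 5.36, 6.29, 3.68, 5.03 and 5.25 (fitted 5.13 ± 0.72). The lowest single value among the 12 rises was 2.16, for CG1441 on replicate 4, and replicate 3 or 4 was the lowest array of each gene.

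After Fbp2, the falls were smaller and spread over unlike kinds of gene. CARPB, whose name marks a carbonic anhydrase-related protein, was at -3.94, -3.89, -4.12, -3.83 and -5.54 (fitted -4.26 ± 0.34, adjusted p = 1.29e-12). Alp1, an alkaline phosphatase gene, was at -3.81, -3.89, -4.19, -2.29 and -4.21 (fitted -3.70 ± 0.21) and Tsp42Ep, a tetraspanin gene, at -3.97, -3.77, -3.63, -1.21 and -4.20 (fitted -3.36 ± 0.33). In both, replicate 4 showed the smallest fall and the other arrays lay close together. Tom, a Bearded family inhibitor of Notch signalling, fell to -2.53 ± 0.25 with arrays between -2.91 and -2.05, and Culd, which codes for a membrane protein with CUB and LDL receptor domains, to -2.90 ± 0.27 with arrays between -3.17 and -2.51. CG4716 had the widest spread of the falls, from -5.81 on replicate 4 to -1.96 on replicate 2 (fitted -3.72 ± 0.43).

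Cuticle protein genes were higher in csn53 more often than lower. Of 16 measured, 8 rose (50.0%, against 21.0% of all features) and 3 fell (18.8%, near the 19.5% of all features), with a median of 0.38. With replicates 1, 2 and 5 alone 8 rose and 1 fell, the calls of Cpr11B and Cpr57A being lost. TwdlF was at 5.90, 6.36, 4.08, 5.82 and 6.24 (fitted 5.73 ± 0.79, adjusted p = 1.20e-07), TwdlW at 5.68, 5.91, 4.28, 4.63 and 4.85 (fitted 5.14 ± 0.69), and TwdlL, without a value on replicate 1, at 5.95, 4.62, 4.60 and 7.12 (fitted 5.61 ± 0.47, n = 4). Tweedle proteins are structural proteins of the cuticle that help to shape the body. Cpr50Cb, of the Rebers and Riddiford family of chitin-binding cuticle proteins, was at 3.21, 3.32, 1.24, 1.70 and 3.47 and rose by 2.61 ± 0.22 (adjusted p = 4.98e-12), with replicates 3 and 4 well below the others. Vajk3, another cuticle gene, went the other way, at -1.82, -1.85, -2.12, -1.26 and -1.95 (fitted -1.85 ± 0.22, adjusted p = 5.12e-09).

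Of 19 genes of chitin synthesis, binding and breakdown, 7 rose and 3 fell, with a median of 0.04, and 9 and 3 did so with replicates 1, 2 and 5. Cht5, a chitinase that digests old cuticle at the moult, was at 3.61, 3.88, 2.44, 3.60 and 3.77 and rose by 3.47 ± 0.28 (adjusted p = 3.32e-13). The chitin-binding matrix gene obst-A was at 1.88, 1.57, 0.91, 0.95 and 2.29 (fitted 1.53 ± 0.21). Both were above 0 on all arrays, with replicate 3 the lowest. The 3 members that fell were Peritrophin-A, a chitin-binding protein of a gut-lining family, to -1.13 ± 0.17, and the chitinase-like growth factor genes Idgf6, to -0.63 ± 0.12, and Idgf3, to -0.58 ± 0.12. Idgf3 was named after its values were seen. Peritrophin-A and both Idgf genes were below 0 on all arrays.

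In tanning and melanization, 3 of 12 genes rose and 3 fell. These shares (25.0% each) were near those of all features (21.0% higher and 19.5% lower). The rises included yellow-b, of the yellow family, at 2.27, 2.28, 0.97, 1.22 and 2.26 (fitted 1.82 ± 0.21), and Ddc, the dopa decarboxylase that makes dopamine for tanning, at 1.12, 1.51, 0.60, 0.37 and 1.33 (fitted 0.99 ± 0.18). Both genes were lower on replicates 3 and 4 than on the other arrays. The falls included PPO1, a prophenoloxidase of crystal cells, at -0.42, -0.50, -1.67, -0.53 and -1.38 (fitted -0.90 ± 0.18), and Pu, which makes the cofactor of tyrosine hydroxylase, at -0.60 ± 0.14.

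Many genes of ribosome biogenesis and the mitochondrial ribosome were higher in csn53. Of 31 ribosome biogenesis genes 22 rose and 0 fell, against 21.0% and 19.5% of all features, and their median was 0.60, against -0.01 over all features. The median of the list on single arrays was 0.73, 0.40, 0.95, 0.27 and 0.83, above 0 on each and lowest on replicate 4. With replicates 1, 2 and 5 alone 18 rose. The gene of eIF6, which keeps the large ribosomal subunit from joining before it is mature, was at 2.11, 1.73, 1.47, 1.05 and 1.86 and rose by 1.65 ± 0.15 (adjusted p = 3.52e-12). l(3)72Dn, whose yeast counterpart acts in processing of the small subunit's RNA, was at 1.65, 1.24, 1.32, 0.88 and 1.68 (fitted 1.37 ± 0.21). Polr1A, the largest subunit of the RNA polymerase that transcribes ribosomal RNA, was at 0.89, 0.48, 1.02, 0.49 and 1.36 (fitted 0.84 ± 0.14), and Ns2, a nucleostemin family GTPase, at 0.92, 0.93, 1.04, 0.24 and 0.94 (fitted 0.82 ± 0.09). In Ns2 replicate 4 lay far below the other arrays.

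Of 20 mitochondrial ribosomal protein genes 15 rose and 0 fell, with a median of 0.37 and array medians between 0.26 and 0.52, and 12 rose with replicates 1, 2 and 5. The clearest was mRpL1, at 0.71, 0.64, 0.78, 0.31 and 0.77 (fitted 0.64 ± 0.07, adjusted p = 5.91e-10), followed by mRpS29 (0.57 ± 0.08), mRpL19 (0.58 ± 0.09) and mRpS31 (0.47 ± 0.08). These 4 genes were above 0 on every array and lowest on replicate 4. Of 29 translation factor genes 15 rose and 0 fell, with a median of 0.21, while 12 rose and 1 fell with replicates 1, 2 and 5. Besides eIF6, which both lists hold, they included mEFTu1, a mitochondrial elongation factor, by 0.51 ± 0.10, eIF2Bgamma, of the exchange factor that recharges eIF2, by 0.43 ± 0.06, and eIF4A, the initiation helicase, by 0.30 ± 0.06. eIF4A had the narrowest range, from 0.26 to 0.33 on the 5 arrays. Only 6 cytoplasmic ribosome genes were measured. Of these 1 rose, RpLP0-like, which was at 0.85, 0.37, 1.32, 0.44 and 0.99 (fitted 0.78 ± 0.16) and whose product resembles the stalk protein of the ribosome and takes part in its assembly.

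Chaperone genes were higher in csn53 more often than lower. Of 27 heat shock and chaperone genes 12 rose (44.4%, against 21.0% of all features) and 5 fell (18.5%, near the 19.5% of all features). Their median was 0.23, and with replicates 1, 2 and 5 alone 9 rose and 7 fell. The mitochondrial chaperone genes Hsc70-5, at 0.75, 0.61, 1.32, 0.32 and 1.12 (fitted 0.82 ± 0.13), and Trap1, at 0.73, 0.60, 0.94, 0.28 and 0.93 (fitted 0.69 ± 0.10), rose. CCT6, of the chaperonin that folds actin and tubulin, rose by 0.47 ± 0.08. The small heat shock gene l(2)efl was at -0.88, -1.49, -1.51, -0.69 and -1.45 and fell to -1.20 ± 0.13 (adjusted p = 8.94e-10).

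Cell cycle and DNA replication genes were lower in csn53 more often than higher. Of 54 measured, 23 fell and 3 rose, against 19.5% of all features lower and 21.0% higher, with a median of -0.25 and array medians between -0.39 and -0.11, and 24 fell and 2 rose with replicates 1, 2 and 5. The genes with the clearest falls act in mitosis. CycB, a mitotic cyclin named after its values were seen, was at -2.33, -1.96, -2.03, -1.43 and -2.06 (fitted -1.97 ± 0.27, adjusted p = 1.41e-07). The securin gene pim, which holds back the separation of sister chromatids, was at -1.55, -1.50, -1.24, -1.16 and -1.55 (fitted -1.40 ± 0.15), and aurB, the Aurora B kinase, at -1.18, -2.10, -1.06, -0.95 and -1.44 (fitted -1.35 ± 0.14). No array of these 3 genes came near 0. The condensin subunit genes glu and Cap-G fell to -0.83 ± 0.11 and -0.49 ± 0.06. Among the rises, and named after its values were seen, RPA1, which binds single-stranded DNA, was at 0.79, 0.54, 0.76, 0.84 and 0.59 (fitted 0.71 ± 0.12).

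**Figure D2:**
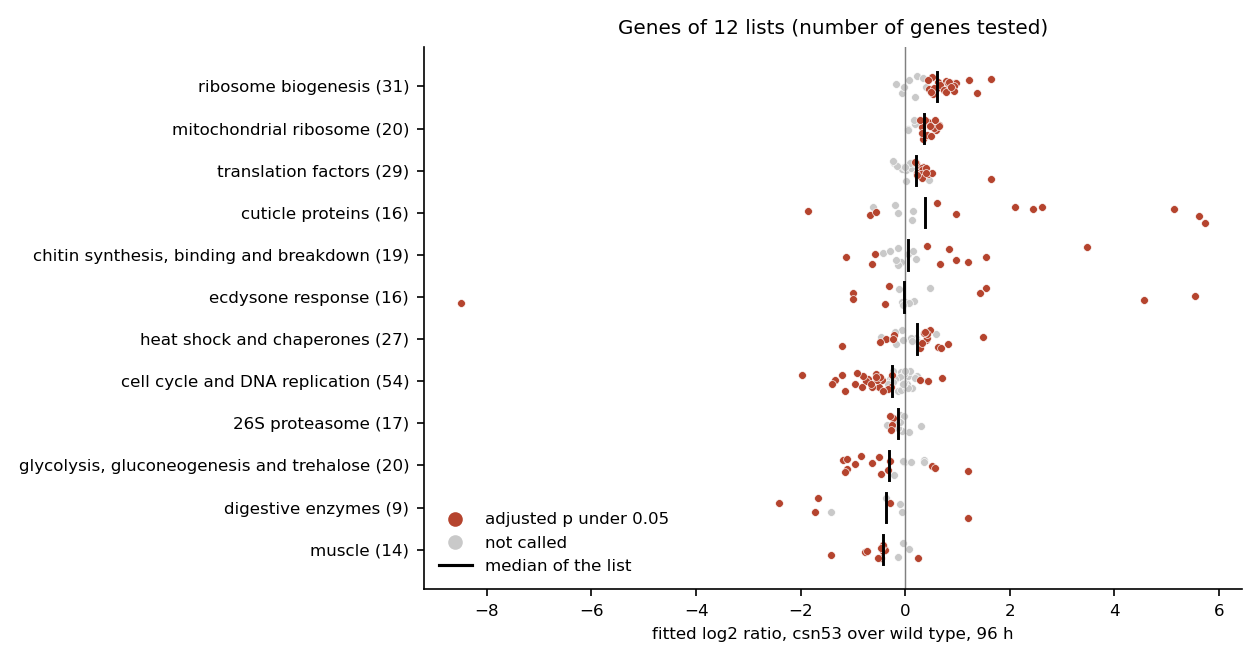
Fitted log2 ratio of csn53 over wild type at 96 h (horizontal axis) for the genes of 12 lists, with the number of genes tested in brackets. Red points passed an adjusted p of 0.05, grey points did not, vertical bars are list medians, and points are shifted up and down only to separate them. The ribosome biogenesis, mitochondrial ribosome and translation factor lists have no called gene below 0, the proteasome list has none above 0, and the ecdysone list spans from -8.50 to 5.53.

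More genes of carbohydrate metabolism fell than rose. Of 20 genes of glycolysis, gluconeogenesis and trehalose 11 fell and 3 rose, against 19.5% and 21.0% of all features, with a median of -0.31 and array medians between -0.47 and -0.24, and 9 and 2 did so with replicates 1, 2 and 5. The enzyme genes Tpi, at -1.17, -1.19, -1.36, -0.91 and -1.30 (fitted -1.19 ± 0.08, adjusted p = 2.76e-16), Pglym78, at -1.20, -1.31, -1.12, -0.68 and -1.44 (fitted -1.15 ± 0.09), and Gapdh1, at -1.17, -1.10, -0.87, -0.69 and -0.97 (fitted -0.97 ± 0.08), act one after another or close together in glycolysis. The value nearest to 0 among these 3 genes was -0.68. UGP, which makes UDP-glucose, fell to -1.12 ± 0.08 with arrays between -1.21 and -0.83. Treh, the trehalase that splits the blood sugar of insects, went the other way, at 1.29, 1.32, 1.32, 0.88 and 1.14 (fitted 1.20 ± 0.15), and Gpdh1, which makes glycerol phosphate, rose by 0.50 ± 0.12.

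Digestive enzyme genes included some of the larger falls. Of 9 measured, 4 fell, and the 1 that rose was Treh, which this list also holds, with a median of -0.36. Amy-p, the proximal amylase gene, was at -2.46, -2.04, -2.52, -2.65 and -2.51 (fitted -2.41 ± 0.30, adjusted p = 1.21e-08), Mal-A5, a maltase, at -1.70, -1.60, -1.80, -1.64 and -1.88 (fitted -1.73 ± 0.14), and mag, a gut lipase, at -1.49, -1.46, -1.63, -2.24 and -1.73 (fitted -1.68 ± 0.28). Amy-p has a near-identical copy in the genome, and how much of its signal came from that copy was not tested. Of the markers of midgut, 2 of 3 measured fell, namely Amy-p and Mal-A5 themselves, and their part in this result was not tested.

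In muscle, 10 of 14 genes fell and 1 rose, against 19.5% and 21.0% of all features, with a median of -0.43, and 8 and 1 did so with replicates 1, 2 and 5. Argk1, the arginine kinase that buffers ATP in muscle, had the smallest adjusted p of the list, at -1.48, -1.30, -1.52, -1.23 and -1.52 (fitted -1.41 ± 0.08, adjusted p = 1.09e-17). The giant sarcomere proteins bt, at -0.82, -0.98, -0.71, -0.56 and -0.76 (fitted -0.76 ± 0.14), and sls, at -0.86, -0.80, -0.50, -0.97 and -0.66 (fitted -0.73 ± 0.12), and the Z-disc gene Zasp52 (-0.43 ± 0.07) were below 0 on every array. All 4 measured muscle markers fell, with a median of -0.60, and whether the larvae held less muscle was not tested.

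Fat body and lipid genes were mixed. Of 10 genes of fat body storage and haemolymph proteins 4 fell and 2 rose, and of 28 lipid genes 8 fell and 9 rose. The lipid droplet genes Lsd-1, at -1.38, -1.53, -1.20, -0.65 and -1.50 (fitted -1.28 ± 0.15), and Jabba, at -0.90, -0.68, -1.76, -1.37 and -1.11 (fitted -1.17 ± 0.17), fell, as did AkhR, the receptor of the hormone that mobilises fat and sugar, at -1.58, -1.89, -2.11, -0.76 and -1.59 (fitted -1.60 ± 0.20). The value nearest to 0 among these 3 genes was -0.65. The lipoprotein gene apolpp fell to -0.66 ± 0.15, and Hmgs, an enzyme at the head of the mevalonate pathway, rose by 0.68 ± 0.08. Of 5 measured fat body markers 3 fell (Fbp2, apolpp and Lsd-1) and 0 rose.

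Detoxification genes moved in both directions. Of 31 cytochrome P450 genes 11 rose and 12 fell, and of 23 genes of glutathione transferases, UGT glycosyltransferases and esterases 6 rose and 7 fell. GstE1, a glutathione transferase gene, was at 2.81, 2.36, 1.72, 2.00 and 2.52 (fitted 2.31 ± 0.15, adjusted p = 4.04e-16). The esterase genes alpha-Est5, at 1.53, 1.30, 1.45, 1.64 and 1.37 (fitted 1.49 ± 0.16), and alpha-Est2, at -1.73, -1.91, -2.17, -0.48 and -2.25 (fitted -1.72 ± 0.19), moved in opposite directions. Esterase genes of one cluster are similar in sequence, and signal shared between them was not tested. Cyp4g1, which makes cuticular hydrocarbons in oenocytes, was at -1.10, -1.12, -1.19, -0.57 and -1.10 (fitted -1.01 ± 0.10), Cyp310a1 fell to -1.59 ± 0.17 and Cyp9f2 to -1.29 ± 0.14, and Cyp4e2 rose by 0.86 ± 0.09. Each of these 4 P450 genes had one sign on all arrays.

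The remaining lists held fewer or mixed calls, and their counts stand against 21.0% of all features higher and 19.5% lower. In oxidative stress response, 3 of 14 rose, among them Keap1, and 4 fell, among them dj-1beta, a Parkinson disease gene homologue, to -0.86 ± 0.07, the secreted superoxide dismutase gene Sod3 to -0.85 ± 0.14, and the ferritin gene Fer1HCH to -0.58 ± 0.06. In the respiratory chain and ATP synthase 6 of 18 fell and 3 rose, with ATPsynF, of the ATP synthase, at -0.47 ± 0.07 and ND-15, of complex I, at -0.38 ± 0.07. Of 22 DNA repair genes 6 rose and 3 fell. Top3beta, a topoisomerase, rose by 0.58 ± 0.08, and nbs and rad50, partners in the complex that binds DNA ends, by 0.54 ± 0.09 and 0.51 ± 0.10, whereas Xpd, a helicase of excision repair, fell to -0.38 ± 0.07. In insulin, TOR and growth 8 of 17 rose and 3 fell (5 and 2 without replicate 3, 5 and 1 without replicate 5), with alc, the beta subunit of AMP-activated kinase, at 0.75 ± 0.13. In apoptosis and autophagy 5 of 24 rose and 4 fell (2 and 2 with replicates 1, 2 and 5), with Atg101, of the complex that starts autophagy, higher by 0.82 ± 0.13 and Atg16, which helps to attach Atg8 to membranes, at -0.40 ± 0.07. In innate immunity 4 of 20 rose, among them the kinase gene IKKbeta of the Imd pathway by 0.72 ± 0.11, and 3 fell, shares at or below those of all features.

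Of 44 transporter genes 16 rose and 5 fell, and without replicate 1 these were 8 and 4. Oatp33Ea, an organic anion transporter gene, was at 1.29, 1.18, 1.34, 1.39 and 1.08 (fitted 1.27 ± 0.12). Oatp74D, the importer that carries ecdysone into cells, was at -1.43, -1.58, -1.23, -1.27 and -1.40 and fell to -1.39 ± 0.17 (adjusted p = 1.04e-08). These 2 genes of one family lay on opposite sides of 0 on every array. In the citric acid cycle list 1 of 7 genes rose and 1 fell. These shares (14.3% each) were below those of all features (21.0% higher and 19.5% lower). The gene that rose was Idh, an isocitrate dehydrogenase, by 1.05 ± 0.12. In imaginal disc patterning 3 of 10 fell, with ap, which sets the dorsal side of the wing, at -1.15 ± 0.12 and Egfr, the epidermal growth factor receptor, at -0.54 ± 0.07, and 0 rose. Of 19 genes of neurons and glia 5 rose and 2 fell, with pros, a transcription factor of neuronal precursors and of endocrine cells of the gut, at -1.40, -1.38, -0.86, -1.07 and -1.29 (fitted -1.19 ± 0.13). Among 15 genes of the female and early germ line 2 rose and 2 fell, fewer calls than the 40.5% of all features. Of these aub, which guides piRNA silencing, was higher by 1.17 ± 0.19, while exu, which acts in localizing mRNA in the oocyte, fell to -0.37 ± 0.11.

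Markers of cell types gave the following counts. Of the 5 haemocyte markers matched by symbol 3 fell and 0 rose. The fall of srp was lost without replicate 1 (adjusted p = 0.0554) or 2 (adjusted p = 0.0814). The list of 9 haemocyte genes went both ways, with 3 higher, 2 lower and a median of 0.02. Of all features 21.0% were higher and 19.5% lower. The rises of that list included Col4a1 (0.70 ± 0.15) and Ppn (0.94 ± 0.12). Col4a1 was chosen as a marker too, under its older symbol Cg25C, which was not matched. The count of 5 markers therefore leaves out a marker that rose. Among neuron and glia markers 2 of 8 rose and 1 fell, among imaginal disc markers 1 of 3 fell, and among epidermis markers 0 of 3 changed. Female germ line markers rose in 2 of 4, aub and piwi, of which piwi was not called without replicate 1, 2, 4 or 5 (adjusted p = 0.0548, 0.0513, 0.245 and 0.120). Male germ line markers fell in 1 of 2, and no salivary gland marker was measured here. The table holds ratios, so the level of a marker itself is not given, and the part of these markers in the gene group results was not tested.

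The change from 72 to 96 h was tested as a difference between the csn53 ratios of the 2 ages. Each age has its own wild type, so a change with age in csn53 and one in wild type cannot be told apart. Of 6186 features 1501 (24.3%) differed, 698 (11.3%) with a higher ratio at 96 h and 803 (13.0%) with a lower one, and 1547 differed with replicates 1, 2 and 5 of the 96 h group. With array weights 2737 differed. The ratio of cuticle genes was higher at 96 h for 9 of 16 and lower for 0, and that of chitin genes for 11 of 19 and lower for 0. The median of the cuticle list on single arrays lay between 0.70 and 1.05 at 60 h, between -1.73 and -0.72 at 72 h and between 0.12 and 0.88 at 96 h, so that 72 h did not overlap with either other age. Array medians of the chitin list followed the same order, at 0.42 to 1.13, -0.96 to -0.26 and -0.31 to 0.29, with an overlap between 72 and 96 h. Single cuticle genes showed the dip most widely. TwdlL had a mean of 4.56 at 60 h and -3.08 at 72 h, with arrays between -4.58 and -2.04 at the latter, and its ratio was 8.69 ± 0.67 higher at 96 h than at 72 h (adjusted p = 4.00e-13). TwdlW had a wide range at 72 h, from -7.32 to 2.52, and differed by 7.64 ± 1.04 (adjusted p = 5.69e-07).

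Some genes of ribosome biogenesis and of the mitochondrial ribosome had higher ratios at 96 h than at 72 h, against 11.3% of all features higher and 13.0% lower. Array medians of the ribosome biogenesis list lay between -0.86 and -0.03 at 60 h, between -0.17 and 0.38 at 72 h and between 0.27 and 0.95 at 96 h. The ratio was higher at 96 h than at 72 h for 13 of 31 of these genes, 11 of 20 mitochondrial ribosome genes and 7 of 29 translation factor genes, and lower for none of the 3 lists. The other 22 translation factor genes were not called. Chaperone genes differed in both directions, 11 of 27 higher and 6 lower at 96 h. In the opposite direction, the ratio was lower at 96 h for 18 of 54 cell cycle genes, with 1 higher, and for 9 of 20 genes of glycolysis and trehalose, with 1 higher. Muscle genes were lower in 4 of 14 and higher in 1.

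**Figure D3:**
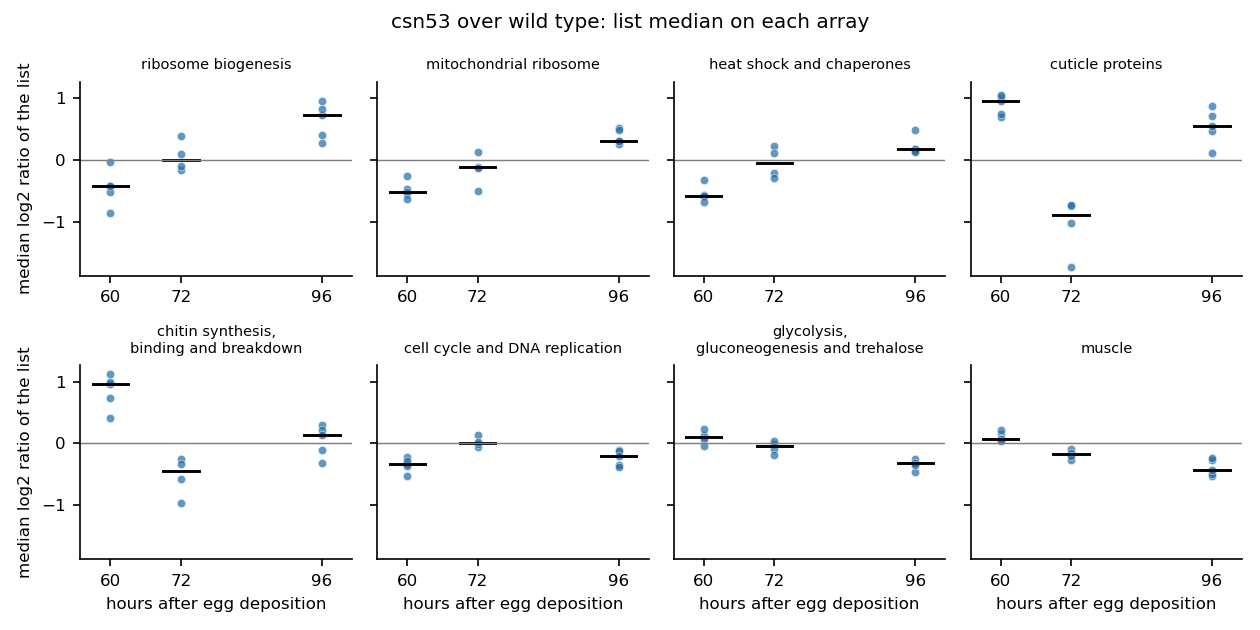
Median log2 ratio of csn53 over wild type over the genes of 8 lists (vertical axis) on each array at 60, 72 and 96 h after egg deposition (horizontal axis). Points are arrays and bars are the medians of the arrays of an age. The cuticle list lies below 0 on every 72 h array and above 0 on every array of the other ages, and the ribosome biogenesis list lies above 0 on every 96 h array.

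The largest single differences between 72 and 96 h are shown in the plot of 8 genes by age. CG4229 was at -3.99 to -2.63 at 72 h, with a mean of -3.17, after 3.66 to 4.87 at 60 h, and its ratio was 9.18 ± 0.66 higher at 96 h (adjusted p = 2.23e-13). CG12164 went from a mean of 4.28 at 60 h through -2.95 at 72 h to a fitted 5.20 ± 0.59 at 96 h, a difference of 8.16 ± 0.88 between the later ages (adjusted p = 1.41e-08). Both genes were higher in the mutant at 60 h, lower at 72 h and higher again at 96 h, on every array. Fbp2 had no clear ratio at 60 h, between -0.40 and 0.32, a mean of -3.05 at 72 h and a further fall of -5.45 ± 0.90 to 96 h (adjusted p = 2.01e-05). Tsp42Ep was above 0 on all 72 h arrays, at 0.31 to 1.16, and differed by -3.98 ± 0.49 (adjusted p = 1.74e-07). CG40486 turned from 1.00 to 1.67 at 72 h to -1.97, -2.10, -1.33, -2.43 and -2.94 at 96 h, a difference of -3.35 ± 0.43 (adjusted p = 4.05e-07). CG9759 went from 1.15 to 2.97 at 72 h down to values between -1.73 and -0.11 at 96 h, a difference of -3.18 ± 0.53 (adjusted p = 1.62e-05).

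**Figure D4:**
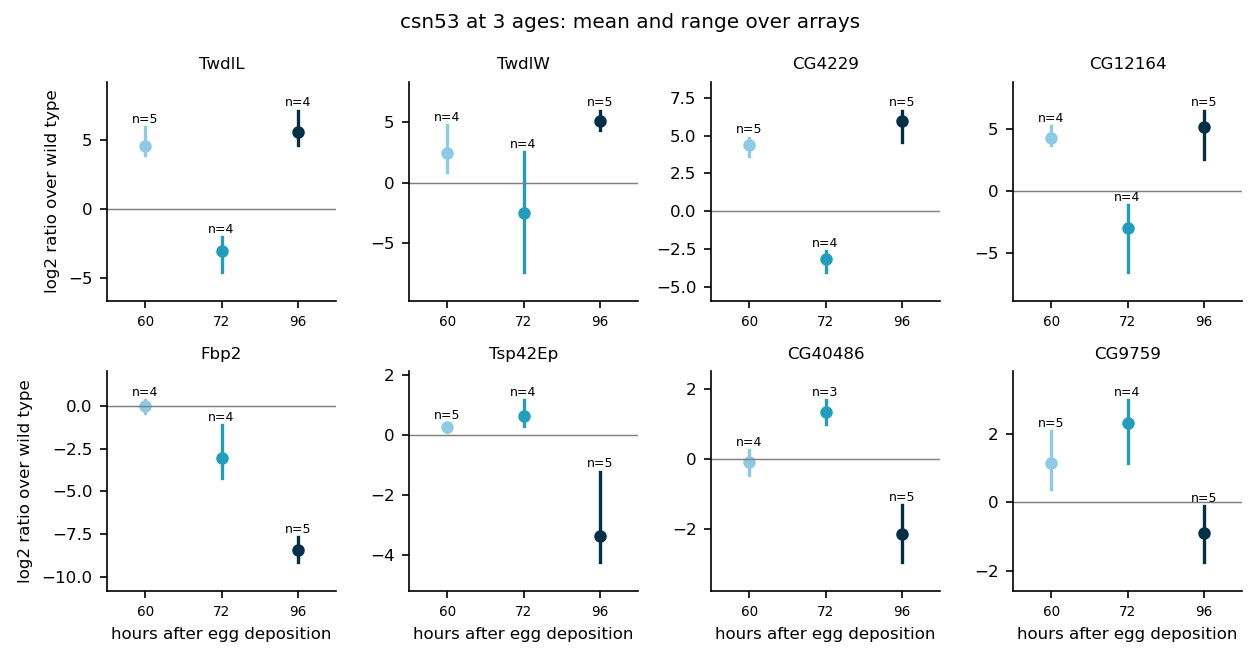
Log2 ratio over wild type (vertical axis) of 8 genes in csn53 at 60, 72 and 96 h after egg deposition (horizontal axis), chosen as the largest differences each way between 72 and 96 h. Points are means over arrays, lines run from the lowest to the highest array, n is the number of arrays with a value, and vertical scales differ between panels. CG4229 and CG12164 lie below 0 at 72 h and above 0 at 60 and 96 h, whereas CG40486 and Tsp42Ep lie above 0 at 72 h and below 0 at 96 h.

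The csn53 allele was compared with the null genotype of the same gene by testing the difference between their ratios. Of 6186 features 1051 (17.0%) differed, 519 (8.39%) higher and 532 (8.60%) lower in csn53, and 923 differed with replicates 1, 2 and 5 of csn53 and 2036 with array weights. The labels do not say whether the 2 genotypes shared wild-type extracts. The ratio in csn53 was above that in csn5null for 17 of 31 ribosome biogenesis genes, 11 of 20 mitochondrial ribosome genes, 6 of 16 cuticle genes and 5 of 29 translation factor genes, and below it for none of these lists. It was below that in csn5null for 6 of 20 genes of glycolysis and trehalose and 6 of 14 muscle genes, with none above, and for 10 of 31 P450 genes, with 2 above. Array medians of the ribosome biogenesis list lay between -0.28 and 0.17 in csn5null, below all 5 of csn53.

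CG3108 lay between -1.07 and 0.47 in csn5null and its ratio was 5.94 ± 1.16 higher in csn53 (adjusted p = 2.74e-04). ImpL1 lay between -0.18 and 0.17 there and differed by 5.54 ± 0.98 (adjusted p = 9.25e-05), CG4229 between 0.09 and 0.78 and differed by 5.63 ± 0.72 (adjusted p = 5.92e-07), and CG4702 between -0.19 and 0.43 and differed by 5.24 ± 0.96 (adjusted p = 1.32e-04). All 4 were thus raised in csn53 and near 0 in the null. In the other direction, CG4716 was above 0 on every csn5null array, at 0.69 to 4.27, and differed by -6.02 ± 0.65 (adjusted p = 2.63e-08). Srg2, which by its name is a gene regulated by the immune sensor STING, was between 1.27 and 4.64 in the null and at -1.52, -0.81, 0.24, -0.48 and -0.71 in csn53, where it did not pass the test against wild type (fitted -0.62 ± 0.39, adjusted p = 0.205). The difference was -4.26 ± 0.58 (adjusted p = 9.77e-07). CG40486 (difference -3.81 ± 0.40, adjusted p = 1.31e-08) was above 0 in the null, from 0.34 to 2.29, and CARPB (difference -3.15 ± 0.51, adjusted p = 2.61e-05) fell further in csn53 than in the null, where it lay between -1.67 and -0.000825. Without csn5null 96 h replicate 3 these differences were between 5.25 and 5.63 for the 4 genes higher in csn53 and -6.47, -5.03, -4.18 and -2.75 for CG4716, Srg2, CG40486 and CARPB, and all remained called.

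The 2 alleles csn53 and csn51 differed at fewer features. Of 5931 tested, 243 (4.10%) had a different ratio, 125 (2.11%) higher and the others (1.99%) lower in csn53, and 157 did so with replicates 1, 2 and 5 of csn53. The csn51 arrays have the wider spread of ratios, and after scaling all arrays to one spread 40 features differed. In a fit of the csn53 and csn51 arrays alone it was 46, and with array weights 599. Of 15 cuticle genes, 20 mitochondrial ribosome genes, 29 translation factor genes and 16 ecdysone response genes none differed by the test, and of 31 ribosome biogenesis genes 2 were lower in csn53. A gene that missed the threshold is not thereby shown to be alike in the 2 alleles. Another 177 named genes had too few values in csn51 to be tested, among them the strongly changed Alp1, CG4716 and CG12164. For ImpL1 the difference was -0.27 ± 1.22, for Fbp2 -0.40 ± 0.85 and for CG4229 0.10 ± 0.82, wide errors beside ratios of 5.53, -8.50 and 6.01. P450 genes were higher in csn53 in 6 of 29 and lower in 0, tanning and melanization genes higher in 3 of 12, and DNA repair genes lower in 4 of 22. Haemocyte markers were higher in 3 of 5, a count without Col4a1, which did not differ. Of the 9 genes of the haemocyte list 0 differed.

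Several genes that differed lay on opposite sides of wild type in the 2 alleles. CG9512 was at -2.0, -1.59, -0.80, -0.77 and -1.70 in csn53 and between 0.21 and 0.81 in csn51, a difference of -1.90 ± 0.20 (adjusted p = 2.00e-08). CG3397 was below 0 in csn53 except on replicate 4, at 0.06, and between 0.38 and 1.88 in csn51, a difference of -1.87 ± 0.28 (adjusted p = 3.25e-05). The reverse held for Cyp6a8, a P450 gene often linked to insecticide resistance, which was at 3.12, 1.69, 0.89, 2.47 and 2.26 in csn53 and between -1.73 and -0.34 on the 3 csn51 arrays with a value, a difference of 3.30 ± 0.58 (adjusted p = 2.91e-04). Rdh1, a retinol dehydrogenase gene, was at 0.04, 0.81, 0.72, 1.00 and 0.32 in csn53 and between 3.70 and 5.28 in csn51, and it differed by -3.74 ± 0.35 (adjusted p = 9.12e-10). Its mean in csn53 was 0.61 at 72 h and 0.82 at 60 h, close to its 96 h ratio.

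CG13360 fell in both alleles, with csn51 between -5.96 and -5.45, and was 3.02 ± 0.47 higher in csn53 (adjusted p = 6.61e-05), while after scaling of the arrays the difference was 1.35 and not called (adjusted p = 0.331). CG32444 (difference 3.63 ± 0.55, adjusted p = 4.04e-05), CG6839 (2.39 ± 0.43, adjusted p = 2.86e-04) and CG6928 (-2.61 ± 0.36, adjusted p = 7.32e-06) had wide ranges in csn51, from -6.21 to -2.25, from -4.95 to -1.87 and from 2.21 to 4.98. Their calls were lost in a fit of the arrays of the 2 alleles alone, with adjusted p-values of 0.0731, 0.0687 and 0.0551, and that of CG6839 also after scaling (adjusted p = 0.0639).

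**Figure D5:**
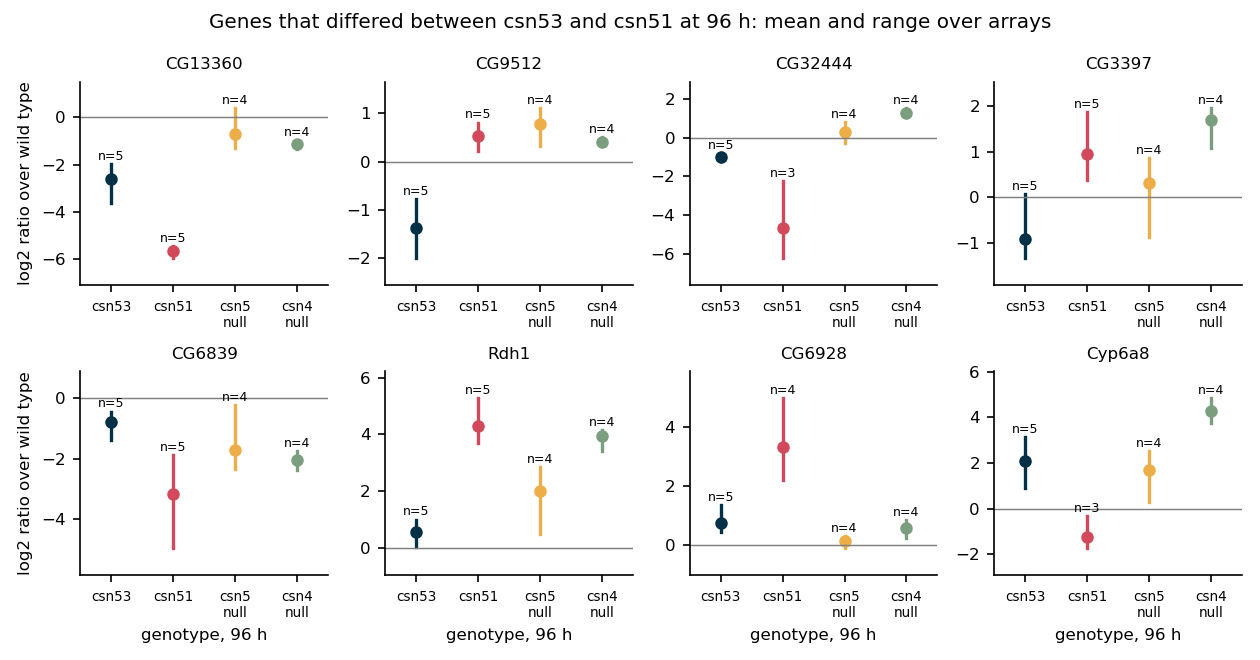
Log2 ratio over wild type at 96 h (vertical axis) in 4 genotypes (horizontal axis) of the 8 genes with the largest differences each way between csn53 and csn51. Points are means over arrays, lines run from the lowest to the highest array, n is the number of arrays with a value, and vertical scales differ between panels. Rdh1 lies between 0.04 and 1.00 in csn53 and between 3.70 and 5.28 in csn51, and CG9512 lies below 0 in csn53 and above 0 in the other 3 genotypes.

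Called genes were spread over all chromosome arms. The share called was 40.9% of 820 genes on 2L, 41.0% of 1002 on 2R, 43.1% of 872 on 3L, 43.8% of 1158 on 3R and 37.5% of 752 on X, and on the small chromosome 4 it was 25.0%, 7 of 28 (exact 95% interval 10.7 to 44.9%). On 3R, which carries CSN5, the exact 95% interval was 40.9 to 46.7%, and genes are not independent, so these intervals cover counting error only. Of the 40 measured genes nearest to CSN5, 20 on each side, 21 (52.5%) were called, 16 higher and 5 lower. Over all features 21.0% were higher and 19.5% lower, and of the 1158 genes on 3R 261 were higher and 246 lower. Rises were thus more frequent near CSN5 than over all features or over 3R, and the cause was not tested.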

How the data were processed

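Arrays of 2 colours with mutant RNA in one dye and age-matched wild-type RNA in the other were analysed from the table of values the authors deposited, taken as log2 ratios per array. How the authors corrected background, normalized and filtered is not stated in the labels, nor are the base of the logarithm and the direction of the ratio. A base of 10 would give ratios no scanner measures and was not used. The table has 6621 rows, of which 5072 carry 1 gene symbol in the platform annotation, 176 several and 1373 none, and 4993 had a match among RefSeq genes (assembly Release 6 plus ISO1 MT), used for names, chromosome arms and gene order. Between 5805 and 6593 rows had a value on an array, 6556 to 6589 on those of csn53 at 96 h. After 32 control rows and 28 rows without a value were left out, every sign was turned and rows of one gene (324 genes) were averaged on each array, which left 6187 features, 4698 of them named. Signal over background was not used, since the table holds ratios alone.

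The tests used limma 3.58.1 (R 4.3.3, with statmod 1.5.0) on all 51 arrays, with 12 group coefficients and 1 dye coefficient (prior df 3.34, prior SD 0.235, median residual SD 0.257). Fitted ratios therefore differ slightly from plain means. A feature needed values on at least 2 arrays of each group, and p-values were adjusted by Benjamini and Hochberg's method over every feature tested in that comparison and called under 0.05. Python 3.11.15 and matplotlib 3.10.9 served for the plots. In simulated data for csn53 at 96 h against wild type (6186 genes) calls were made for 30 of 50 genes with a true log2 change of 0.5. At a change of 1 it was 49 of 50 and at 2 it was 50 of 50, with 2.72% of calls false. The simulation used independent normal noise with the residual spread of each gene, and only a small set of genes was changed. In the data 40.5% of features were called and some arrays stood apart, so these rates need not carry over.

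The comparison, its gene lists and the genes named were chosen with earlier results of these data known. There were 39 lists, 1 of them with no measured member. Genes were named by a rule, 159 genes in all, and 23 more were added after their values were seen. The rule took CSN4 and CSN5, and the 12 largest called rises and falls with one sign on every array. Per difference it took the 4 largest each way that were called and had no overlap between groups. In each list it took the 4 or fewer called members of lowest adjusted p. Alternatives were a fit without the dye term, fits of the compared groups alone, centring, scaling, a value on every array, each row on its own, array weights, the replicate number as a block, leaving out every array once, and leaving out 3 doubted csn5null arrays. Keeping replicates 1, 2 and 5 as the only csn53 96 h arrays was chosen after the data had been seen.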

Additional observations from a re-analysis of the deposited data

Results flagged for a closer look

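Of 182 genes checked, 18 had 1 csn53 96 h array whose gap to the nearest other array took up more than 0.71 of the range of the 5 values, Dixon's critical value for 5 samples, and chance gives this in about 1 of 20 groups. The array apart was replicate 4 in 10 genes, replicate 3 in 7 and replicate 5 in 1. On replicate 4 Alp1 was at -2.29, Tsp42Ep at -1.21, UGP at -0.83, Cyp4g1 at -0.57, CG3397 at 0.0641, Ns2 at 0.24 and Picot, a phosphate transporter gene, at 0.32. On the same array Rpn7 was at -0.0428, Start1 at -0.0667 and Msp300, a giant protein that anchors nuclei in muscle, at -0.20. In these 10 genes replicate 4 was nearer to 0 than the next array or, for CG3397 and Msp300, on the other side of 0. On replicate 3 TwdlF was at 4.08, CG4702 at 3.27, ImpE2 at 2.54, Cht5 at 2.44, Hr3 at 1.04, Xpd at -0.19 and Cul1, a cullin gene, at -0.00759. The nearest other array was at 5.82, 5.50, 4.74, 3.60, 1.62, -0.41 and 0.23. On replicate 5 CARPB was at -5.54, below the others by more than 1 log2 unit. What set these arrays apart was not tested.

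The largest differences, 4 each way, are listed for the 3 comparisons with other groups. They were picked among genes that passed the test of the difference and whose groups did not overlap. Their adjusted p-values are therefore no separate support. Against csn51 at 96 h these were Rdh1 (-3.74, adjusted p = 9.12e-10), CG6928 (-2.61, adjusted p = 7.32e-06), CG9512 (-1.90, adjusted p = 2.00e-08) and CG3397 (-1.87, adjusted p = 3.25e-05), lower in csn53, and CG32444 (3.63, adjusted p = 4.04e-05), Cyp6a8 (3.30, adjusted p = 2.91e-04), CG13360 (3.02, adjusted p = 6.61e-05) and CG6839 (2.39, adjusted p = 2.86e-04), higher in csn53. Against csn5null at 96 h CG4716 (-6.02), Srg2 (-4.26), CG40486 (-3.81) and CARPB (-3.15) were lower and CG3108 (5.94), CG4229 (5.63), ImpL1 (5.54) and CG4702 (5.24) higher, with adjusted p-values of at most 2.74e-04. Between 96 and 72 h in csn53, Fbp2 (-5.45), Tsp42Ep (-3.98), CG40486 (-3.35) and CG9759 (-3.18) were lower and CG4229 (9.18), TwdlL (8.69), CG12164 (8.16) and TwdlW (7.64) higher at 96 h, with adjusted p-values of at most 2.01e-05.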

How the results depend on the processing

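The count against wild type was 2049 to 2421 without 1 csn53 array in turn and 3774 with array weights. In fits of the csn53 96 h arrays alone it was 2974 without and 3185 with a dye term. The median residual SD was 0.169 and 0.148 in these fits, against 0.257 in the main fit over all arrays. Without 3 csn5null arrays the count was 2845. The count of differences between csn53 and csn51 was 181 to 321 without 1 array and moved most with the processing, to 40 after scaling, 46 and 40 in fits of the arrays of these 2 groups without and with a dye term, 153 with a value on every array (5121 features tested), 397 without 3 csn5null arrays, 599 with array weights and 157 with replicates 1, 2 and 5 as the only csn53 96 h arrays. The count against csn5null was 759 to 1113 without 1 array and 2036 with array weights, and that between 96 and 72 h was 1118 to 1649 and 2737. The cause of these moves was not tested. No result reversed. Of 3393 values of 206 gene results under alternatives 3292 stayed on their side of the threshold with the same direction, 95 in 29 results lost the call and 6 gained it. CSN5 and Srg2 gained a call in fits of their own arrays, CSN1b and Srg2 with array weights. Of 592 list counts 46 moved by over 1.5 times. Whether replicate numbers pair the arrays is not settled by the labels. The deviations of same-numbered arrays correlated above 0.1 in 4 of 5 pairs with csn51 (the other at -0.15) and 3 of 4 with csn53 at 72 h (the other at 0.08). With csn5null and csn4null they did so in 1 of 4 pairs each. Arrays of unlike number were not correlated as a reference, and in these groups the number goes with the dye. These values therefore cannot decide whether the numbers pair the arrays, and the numbers were not treated as pairs. With the replicate number as a block the counts were 2506, 248, 1054 and 1500, which changed none of the 4 by over 1.5 times. In simulated data for the comparison with wild type (6186 genes) 30 of 50 genes changed by 0.5 on the log2 scale were called. Small differences can thus be missed, and the rate at which this happened in the data was not tested.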

Other observations

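Among 7 measured genes of the circadian clock list, 1 rose and 1 fell, against 40.5% of all features called. Pdp1, a transcription factor of the clock, was at 0.41, 0.35, 0.47, 0.09 and 0.51 on replicates 1 to 5 and rose by 0.38 ± 0.09 (SE, adjusted p = 5.34e-04, limma). All 5 values lay above 0, with replicate 4 the lowest. The gene of the blue light receptor cry was at -1.29, -1.50, -0.29, -0.17 and -1.77 and fell by 1.02 ± 0.26 (adjusted p = 0.00175, limma). All 5 values lay below 0, with replicates 3 and 4 the closest to it. The clock gene tim, at a fitted ratio of -0.18 ± 0.18, missed the threshold (adjusted p = 0.479, limma).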
